A study of Mus musculus with 20 samples.

Results

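With the antisense oligonucleotide SPC4955, 49 of 22361 genes measured in mouse liver met a rule for higher levels than in all other groups. They were chosen from the measured values themselves. A gene was kept when its mean log2 intensity over the 4 SPC4955 arrays was at least 0.4 above the saline mean and at least 0.3 above the mean of each other oligonucleotide, and when its 4 SPC4955 arrays all lay above the 16 other arrays. The first condition kept 481 genes and the second left 130 of them. In the other 81 of those 130 at least 1 of the 16 arrays reached into the range of the SPC4955 arrays.

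The study dosed female mice of the inbred C57BL/6 strain into a vein on 3 consecutive days and measured total RNA from the liver, with 1 array per mouse and 4 mice per group. The groups were saline, SPC3833 at 5 mg/kg, and SPC4955, SPC4061 or SPC3847, each at 10 mg/kg. The stated purpose was to find changes of expression relative to saline. The treatment protocol in the labels places the collection on day 3 after a first dose on day 0, and the sample source places it 4 days after the first dose. The labels call the arrays biological replicates and give only code names for the oligonucleotides, so neither a target nor a chemistry is stated here. All mice, saline included, had the same strain, sex and route of dosing, and no genetic change is named in the labels.

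An antisense oligonucleotide is a short synthetic strand that binds an RNA by base pairing. Depending on its chemistry, the bound RNA is cut by a cellular enzyme or its processing or translation is blocked, so the direct effect on a target that is cut is a lower level of its RNA. Higher RNA levels after dosing are commonly studied as responses of the tissue further down the line. Whether the rises reported here are such responses was not tested. The liver is a main site where antisense strands collect after injection into the blood. A bulk liver sample mixes hepatocytes with macrophages, endothelial cells, blood cells and others. In such a sample a higher level of an RNA in some cells and a larger number of the cells that carry it cannot be told apart. The deposited values carry Ensembl gene identifiers without symbols, and none of these was found in the gene table used here, so 3 genes are given by identifier, the others by their rank among the 49, and no role is assigned to any of them.

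The arrays differed somewhat in scale, which touches every difference below. Array medians lay between 6.37 and 6.53 (log2 intensity), and their quartile ranges (the width of the middle part of the distribution) ran from 2.99 to 3.21 with SPC4955, from 2.81 to 3.15 with saline and from 2.70 to 3.20 with the other oligonucleotides. Among the latter, the widths with SPC3833 (2.873 to 2.975) and with SPC4061 (3.025 to 3.196) did not overlap. The arrays that deviated most from their group mean over all genes were saline replicate 1, SPC4955 replicate 1 and SPC3847 replicate 4, with an SD over genes of 0.270, 0.236 and 0.227 against 0.101 to 0.169 in the other 17. Without saline replicate 1 and SPC4955 replicate 1, the rule found 78 genes, of which 42 were among the 49. Leaving out arrays also eases the rule, since fewer arrays must then lie apart.

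The rises that chose the 49 genes were mostly moderate. The SPC4955 mean exceeded the saline mean by 0.41 to 1.97 on the log2 scale, with a median of 0.68, which corresponds to folds of 1.33 to 3.91 and a median of 1.60. The median over all 22361 genes was 0.01. Among the 49, 5 rose at least 2-fold, 13 rose by 0.75 to 1 on the log2 scale, 21 by 0.5 to 0.75 and 10 by less than 0.5. These differences were used in the choice and are given without a test.

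**Figure D1:**
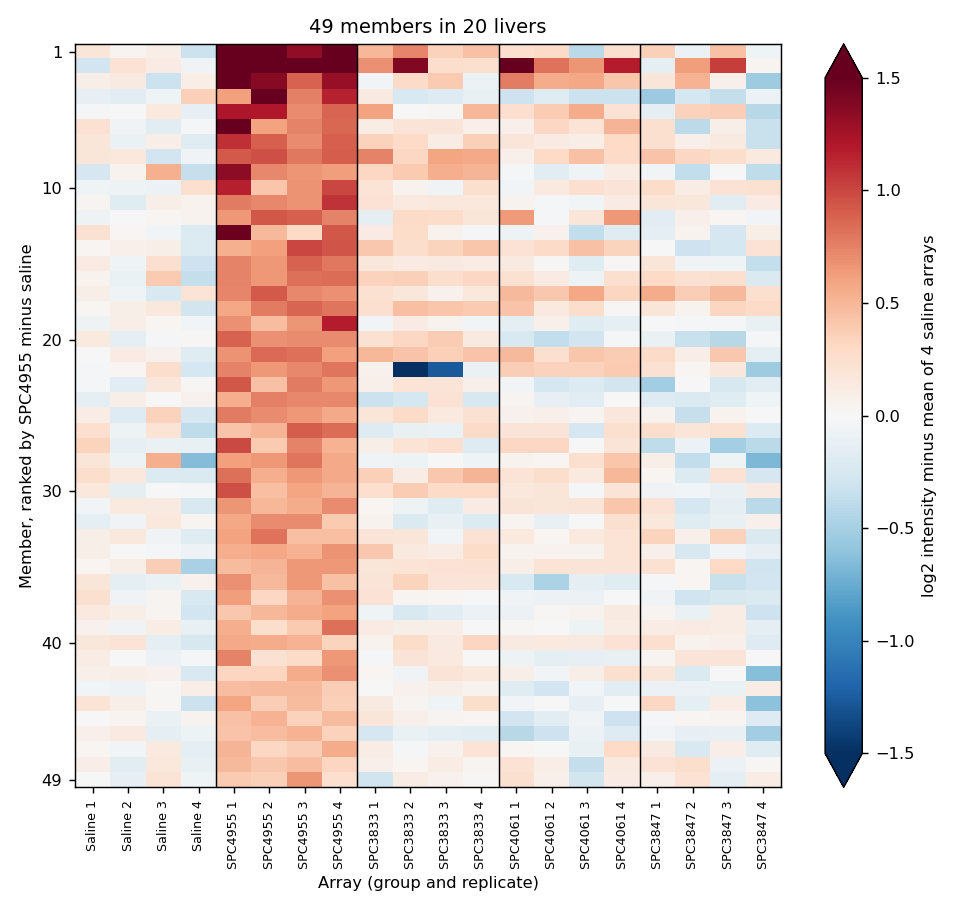
Log2 intensity minus the mean of the 4 saline arrays, for the 49 genes (lines, ranked from the largest to the smallest rise with SPC4955) in each of the 20 arrays (columns, grouped by treatment); colours end at 1.5 in either direction. The 4 SPC4955 columns are the highest in every line, as the choice of the genes requires, and the gene of rank 22 is low in 2 of the 4 SPC3833 columns.

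The 49 genes came from all parts of the range of levels in saline, as shown in the plot of rise against saline level. Their saline means ran from 3.68 to 11.30 (log2 intensity), with a median of 6.88 against 6.44 over all genes. Of the 49, 5 lay below the first quartile of all genes, 13 between it and the median, 20 between the median and the upper quartile, and 11 above the upper quartile. Whether the 5 dim genes were above background is not known from these values, so their folds are ratios of deposited intensities.

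**Figure D2:**
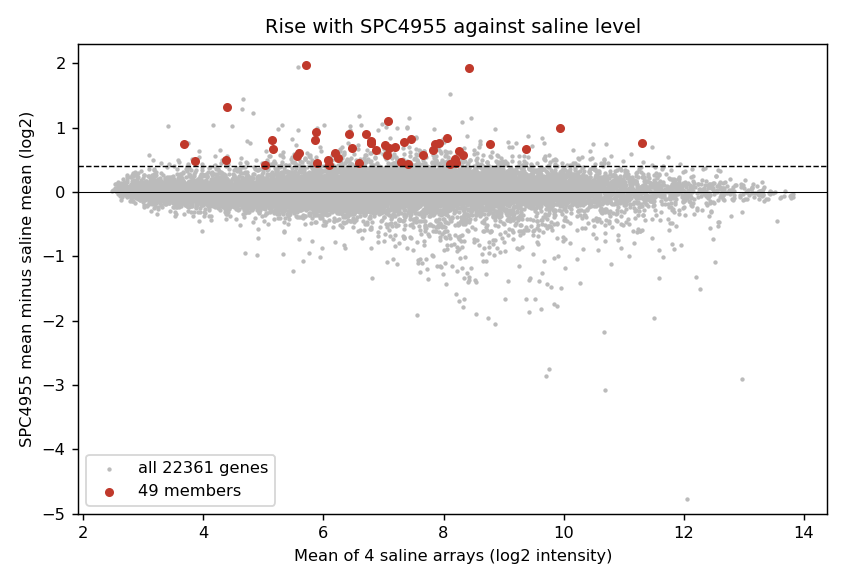
Mean of the 4 saline arrays (horizontal axis, log2 intensity) against the SPC4955 mean minus the saline mean (vertical axis, log2) for all 22361 genes in grey and the 49 chosen genes in red; the dashed line marks the 0.4 of the rule. The 49 spread over saline levels of 3.68 to 11.30, and only part of the genes above the dashed line are among them.

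The largest rise was in ENSMUSG00000029372. Its log2 intensity was 8.70, 7.31, 7.04 and 7.63 in SPC4955 replicates 1 to 4, and 5.88, 5.75, 5.81 and 5.38 in the saline replicates. The SPC4955 arrays were thus all high, with replicate 1 above the rest of its group. With SPC3833 the values were 6.20, 6.44, 6.05 and 6.15, above all 4 saline arrays. The difference of 0.50 ± 0.25 (SE) did not pass the threshold in the fit of all groups (limma adjusted p = 0.290, n = 4 per group). That SE pools the spread of all groups, and the SD was 0.73 with SPC4955, 0.22 with saline and 0.17 with SPC3833. In a fit of only the arrays compared, the same difference passed (limma adjusted p = 0.0372). Whether this gene was called with SPC3833 thus depended on the fit. With SPC4061 the gene was at 5.30 to 5.99 and with SPC3847 at 5.62 to 6.15, and both ranges overlapped that of saline. The SPC4955 mean lay 1.46 above the SPC3833 mean, which was the highest of the other oligonucleotides, and this was the widest such distance among the 49. Without SPC4955 replicate 1 the rise over saline was 1.62, against 1.97 with it.

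ENSMUSG00000031271 had a nearly equal rise of 1.93, but its level in other groups was less uniform. It measured 10.86, 10.22, 10.20 and 10.15 with SPC4955 and 8.15, 8.65, 8.56 and 8.38 with saline. The 4 SPC4061 arrays read 9.94, 9.25, 9.10 and 9.61, between the other 2 groups and overlapping neither. Against saline this difference was 1.04 ± 0.27 (SE; limma adjusted p = 0.0150, n = 4 per group), and the adjusted p ranged from 0.0076 to 0.0507 over the alternatives, with the highest value without SPC4061 replicate 1. With SPC3833 the values were 9.11, 9.82, 8.70 and 8.67 and with SPC3847 they were 8.29, 9.06, 9.47 and 8.47. The first set lay above all saline arrays and the second overlapped them, and neither difference from saline passed the threshold (limma adjusted p = 0.176 and 0.590).

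**Figure D3:**
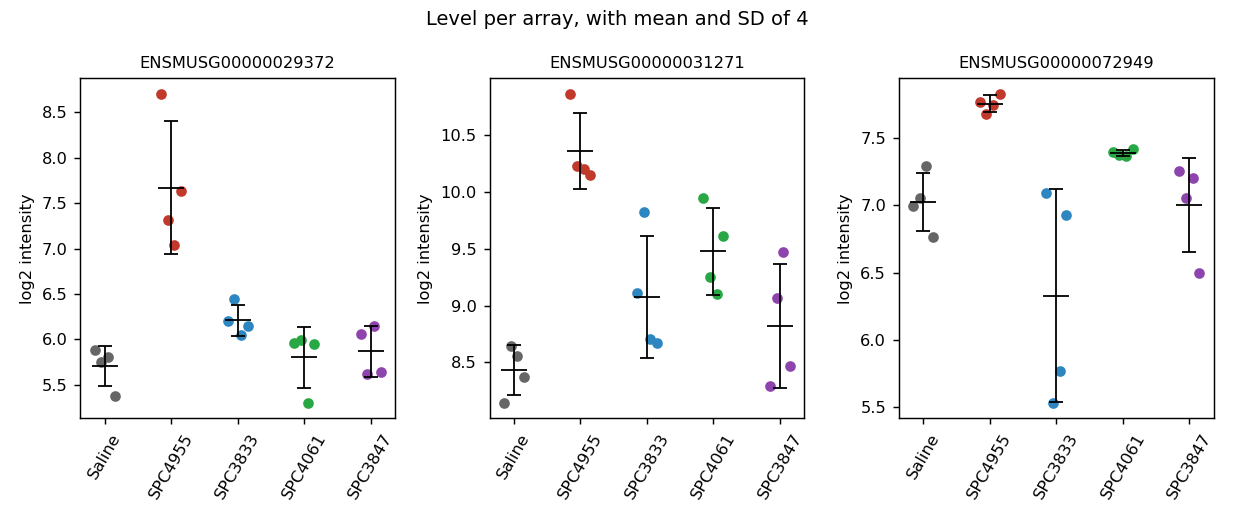
Log2 intensity in each of the 20 arrays (points) with the mean and SD of 4 (bars) for the 2 genes with the largest rises and for ENSMUSG00000072949. The first rises with SPC4955 from 5.70 to 7.67, the second also lies above saline with SPC4061, and the last has 2 low SPC3833 arrays at 5.54 and 5.77.

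The next 3 genes by rank complete those with at least a 2-fold rise. The gene of rank 3 measured 6.10, 5.76, 5.27 and 5.69 with SPC4955 and 4.48, 4.53, 4.07 and 4.48 with saline, and 4.80 to 5.16 with SPC4061. The SPC4061 arrays lay above all saline arrays, but the difference of 0.58 did not pass (limma adjusted p = 0.0526). This gene is dim, with a saline mean of 4.39, below the first quartile of all genes at 5.09. The gene of rank 4 measured 7.70, 8.99, 7.84 and 8.23 with SPC4955 and 6.91 to 7.43 with saline. For this gene the means of all 3 other oligonucleotides lay below the saline mean, as they did for 3 of the 49 genes and 15.5% of all genes. In 17 of the 49 genes all 3 means lay above the saline mean, against 24.8% of all genes. The rule used these means, so the counts are a description only. The gene of rank 5, a bright one, measured 11.15, 11.14, 10.64 and 10.81 with SPC4955 and 9.81 to 10.08 with saline.

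No single SPC4955 mouse was the highest of its group in most of the 49 genes. SPC4955 replicate 1 was the highest of the group in 20 genes, replicate 4 in 11 and replicates 2 and 3 in 9 each, while over all genes replicate 1 was the highest in 23.8%. Averaged over the 49 genes, the distance from the saline mean was 0.82, 0.67, 0.69 and 0.74 in SPC4955 replicates 1 to 4, and -0.12 to 0.06 in the saline arrays. The same average was 0.12 to 0.16 with SPC3833, 0.05 to 0.17 with SPC4061 and -0.16 to 0.08 with SPC3847. Single arrays stood out in other groups. SPC4061 replicate 4 was the highest of its group in 23 of the 49 genes, against 18.8% of all genes. Saline replicate 4 was the lowest of its group in 26 and SPC3847 replicate 4 in 25, where the share of all genes was not computed. Both had the narrowest quartile range of their group (2.81 and 2.70). The spread within a group was somewhat wider than that of genes at large: the median SD of the 49 genes was 0.161 with saline and 0.129 with SPC4955, against 0.129 and 0.120 over all genes. Likeness was read in the 16 arrays without SPC4955, after group means were subtracted. Pairs of the 49 genes had a median correlation of 0.12, against 0.01 over all pairs of genes. The correlation was above 0 in 61.3% of pairs, against 50.6%. The choice used all 20 arrays, so these orders, correlations and spreads are a description only.

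A comparison of the other oligonucleotides with saline asked how the 49 genes stood in mice that had no SPC4955. The rule used the saline mean, the mean of each other oligonucleotide and each of the 16 arrays, and it favours genes whose saline arrays are low. The counts, medians and p-values of all 6 comparisons without SPC4955 are therefore not independent of the choice and are given, from a fit over all genes, as a description. Of the 49 genes, 44 passed the threshold against saline with none of the other 3 oligonucleotides, and 5 (10.2%) passed with at least 1, where 17.3% of all genes did. A rise with SPC4955 alone was thus not what the data showed for those 5. A p above the threshold does not show that the other 44 were level with saline.

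With SPC3833, 3 of the 49 genes were higher than with saline at an adjusted p below 0.05 in the limma model of all 20 arrays, where 3.71% of all genes were called higher, and 0 were lower, where 3.35% of all genes were called lower. At an unadjusted p below 0.05 there were 13 higher and 1 lower, where 12.1% and 7.29% of all genes were. The 3 were the genes of rank 8, 18 and 21, with differences of 0.55, 0.38 and 0.43 (limma adjusted p = 0.00257, 0.0244 and 0.00989). The gene of rank 8 measured 7.17, 6.74, 7.02 and 6.99 with SPC3833 and 6.14 to 6.61 with saline, so that the groups did not overlap, and its call held under all 29 alternatives. The call of the gene of rank 18 was lost after median centring, without saline replicate 4 and without SPC3833 replicate 2, 3 or 4 (limma adjusted p up to 0.0891). The median difference from saline over the 49 genes was 0.14 against 0.05 over all genes, and 39 of the 49 had a mean above saline, against 64.7% of all genes. The count of 3 ranged from 1 to 7 over the alternatives, and was 5 without saline replicate 3 and 5 without SPC3847 replicate 4. The count of genes called lower was 1 without SPC3833 replicate 1, 3 or 4.

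With SPC4061, 3 of the 49 genes were called higher than with saline against 8.73% of all genes, and 0 were called lower against 2.74% (limma, adjusted p below 0.05). At an unadjusted p below 0.05 there were 10 higher and 5 lower, where 16.7% and 8.09% of all genes were. The 3 were ENSMUSG00000031271 and the genes of rank 17 and 21. The median difference was 0.09 against -0.02 over all genes, and 34 of the 49 lay above saline, against 46.6% of all genes. The median of the 49 became 0.01 when array width was added as a covariate, where that of all genes was 0.03. It was also 0.01 without saline replicate 4, and 0.05 without SPC4061 replicate 4. Without SPC3847 replicate 4, 5 were called higher and 2 lower, and without SPC4061 replicate 3, 1 was called lower.

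With SPC3847, 1 of the 49 genes was called higher against 1.84% of all genes, and 0 lower against 1.49% (limma, adjusted p below 0.05). At an unadjusted p below 0.05 there were 3 higher and 5 lower, where 9% and 5.72% of all genes were. The median difference was -0.04 against 0.02 over all genes, and 20 of the 49 lay above saline, against 58.4% of all genes. The median of the 49 turned to 0.01 without SPC3847 replicate 4 and to 0.02 with array quality weights, so it had no settled direction. It was -0.02 without saline replicate 1, saline replicate 3 or SPC3847 replicate 2, and -0.06 without saline replicate 4. The gene called was that of rank 17, and it was not called without saline replicate 3, without SPC3847 replicate 3 or in a fit of only the 8 arrays compared.

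The gene of rank 17 was the one called against saline with both SPC4061 and SPC3847. It measured 8.004, 7.86, 7.69 and 8.12 with saline, 8.40, 8.32, 8.50 and 8.24 with SPC4061, and 8.48, 8.28, 8.41 and 8.16 with SPC3847. Both sets lay above all 4 saline arrays, and the SPC4955 arrays, at 8.61 to 8.84, lay above both. Its differences from saline were 0.77 with SPC4955, 0.45 ± 0.09 (SE; limma adjusted p = 0.00296) with SPC4061 and 0.41 ± 0.09 (SE; limma adjusted p = 0.0148) with SPC3847. With SPC3833 the difference was 0.15. The gene of rank 21 was called with SPC3833 and SPC4061, with differences of 0.43 and 0.38 (limma adjusted p = 0.00989 and 0.0159). Its SPC4061 call was lost without saline replicate 4 and when array width was added as a covariate, and its SPC3833 call after median centring. All these comparisons share the 4 saline arrays.

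**Figure D4:**
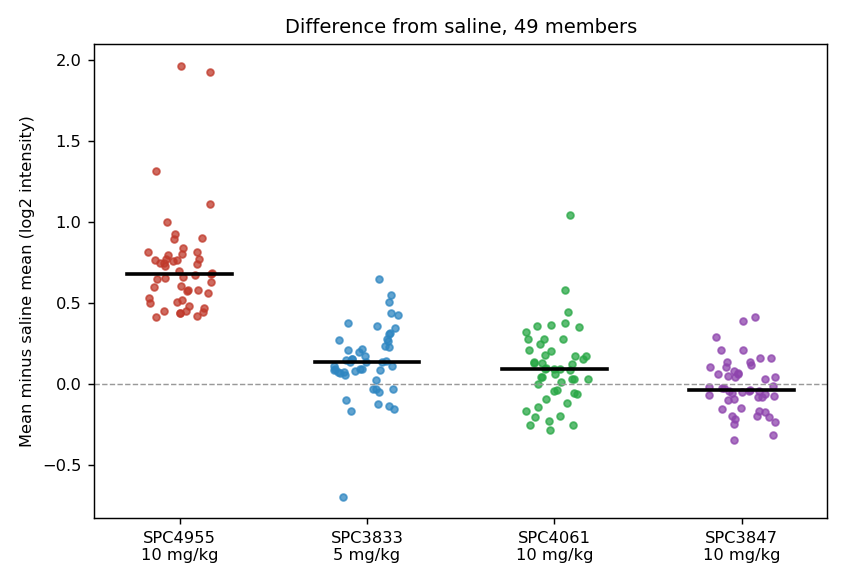
Group mean minus saline mean (log2 intensity, n = 4 per group) of the 49 genes with each oligonucleotide; each point is a gene and the black bar is the median. The medians are 0.68 with SPC4955, which chose the genes, and 0.14, 0.09 and -0.04 with SPC3833, SPC4061 and SPC3847; the last turns to 0.01 without SPC3847 replicate 4 and to 0.02 with array quality weights.

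The 3 other oligonucleotides were also compared with each other, without SPC4955. SPC4061 and SPC3847 had the same dose of 10 mg/kg, and 3 of the 49 genes were higher with SPC4061, against 4.76% of all genes, and 0 lower, against 1.98% (limma, adjusted p below 0.05). At an unadjusted p below 0.05 there were 11 higher and 2 lower, where 12.7% and 10% of all genes were. The 3 were the genes of rank 14, 27 and 31, with differences of 0.41, 0.55 and 0.40 (limma adjusted p = 0.0363, 0.0184 and 0.0394). These calls held under 21, 25 and 15 of the 29 alternatives. The count was 1 when any 1 of the SPC4061 arrays was left out, and also 1 without SPC3847 replicate 3 and without SPC3847 replicate 4. SPC3833 was given at 5 mg/kg, so its comparisons with the other 2 join a difference of compound with one of dose.

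Between SPC3833 and SPC3847, 7 of the 49 genes were higher with SPC3833, against 3.02% of all genes, and 0 were lower, against 3.34% (limma, adjusted p below 0.05). At an unadjusted p below 0.05 there were 14 higher and 2 lower, where 9.51% and 8.61% of all genes were. The differences of the 7 lay between 0.31 and 0.64, the last in the gene of rank 9 (limma adjusted p = 0.0254). That call held under 24 of the 29 alternatives. The median over the 49 was 0.17 against 0.02 over all genes, and without SPC3847 replicate 4 it was 0.10 against 0.04. Over the alternatives the count of 7 ranged from 2, after median centring, to 12, when array width was added as a covariate. It was 3 without SPC3833 replicate 1 or replicate 3, and 4 without SPC3833 replicate 2 or replicate 4 and without SPC3847 replicate 2 or replicate 4. The count of genes called lower was 1 without SPC3833 replicate 1 or SPC3847 replicate 4.

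Between SPC3833 and SPC4061, 5 of the 49 genes were higher with SPC3833, against 7.42% of all genes, and 2 were lower, against 9.5% (limma, adjusted p below 0.05). At an unadjusted p below 0.05 there were 7 higher and 4 lower, where 19.1% and 15.4% of all genes were. The genes of rank 20, 23 and 36 were higher with SPC3833 than with both SPC4061 and SPC3847, as 1.11% of all genes were. For the gene of rank 20 these differences were 0.49 and 0.48 (limma adjusted p = 0.00117 and 0.00251), and both calls held under all 29 alternatives. For the gene of rank 36 the call against SPC4061 held under all 29 and that against SPC3847 under 24. For the gene of rank 23 the calls held under 19 and 11 of the 29, and each was lost when any 1 of the SPC3833 arrays was left out. The count of 2 lower was 1 without SPC3833 replicate 2, 3 or 4 and without SPC4061 replicate 1, 2 or 3. The count of 5 was 3 without SPC3833 replicate 3, SPC3833 replicate 4 or SPC4061 replicate 2. The array widths of the SPC3833 and SPC4061 groups did not overlap, so this comparison also joins a difference of width. With array width as a covariate, 6 were higher (4.16% of all genes) and 0 lower (4.31%). In that fit the calls of the genes of rank 17, 22, 23 and 43 were lost.

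ENSMUSG00000072949, of rank 22, had the lowest difference from saline of the 49 genes with an oligonucleotide other than SPC4955 and was named for that after its values were seen. It measured 7.09, 5.54, 5.77 and 6.93 in SPC3833 replicates 1 to 4, and 6.999, 7.05, 7.29 and 6.77 with saline. Thus 2 SPC3833 arrays were low and 2 lay within the saline range, with an SD of 0.79. Its SPC4061 arrays were close together, at 7.37 to 7.42, and its SPC4955 arrays were at 7.68 to 7.83. The SPC4061 arrays lay above all 4 saline arrays, with a difference of 0.36 that did not pass (limma adjusted p = 0.392). Over the alternatives that adjusted p ranged from 0.0476 to 0.784, so whether it passed depended on the fit. The SPC3833 mean was lower than the SPC4061 mean (log2 difference -1.06 ± 0.25, SE; limma adjusted p = 0.00813, n = 4 per group), and this call was lost when array width was added as a covariate (limma adjusted p = 0.105). Against saline the difference with SPC3833 was -0.70 and did not pass (limma adjusted p = 0.115), but it passed without SPC3833 replicate 1 or replicate 4, which are the high arrays.

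Several genes lay close to the limits of the rule. Among genes that met the other conditions, the smallest kept rises over saline were 0.41, 0.42 and 0.44 and the largest left out were 0.39, 0.39 and 0.33. The smallest kept distances from the highest other oligonucleotide were 0.302, 0.302 and 0.312, and the largest left out were 0.299, 0.295 and 0.291. The lowest SPC4955 array exceeded the highest of the other 16 by 0.0014 to 0.59, with a median of 0.11, and by less than 0.1 in 20 of the 49 genes. That highest other array belonged to SPC3833 in 21 genes, to SPC4061 in 12, to saline in 10 and to SPC3847 in 6. The same rule turned to lower levels found 137 genes for SPC4955, 191 for SPC3833, 95 for SPC4061 and 43 for SPC3847. Turned to rises with the other oligonucleotides it found 155 genes for SPC4061, 22 for SPC3833 and 4 for SPC3847, and these counts share the same arrays and have no test.

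**Figure D5:**
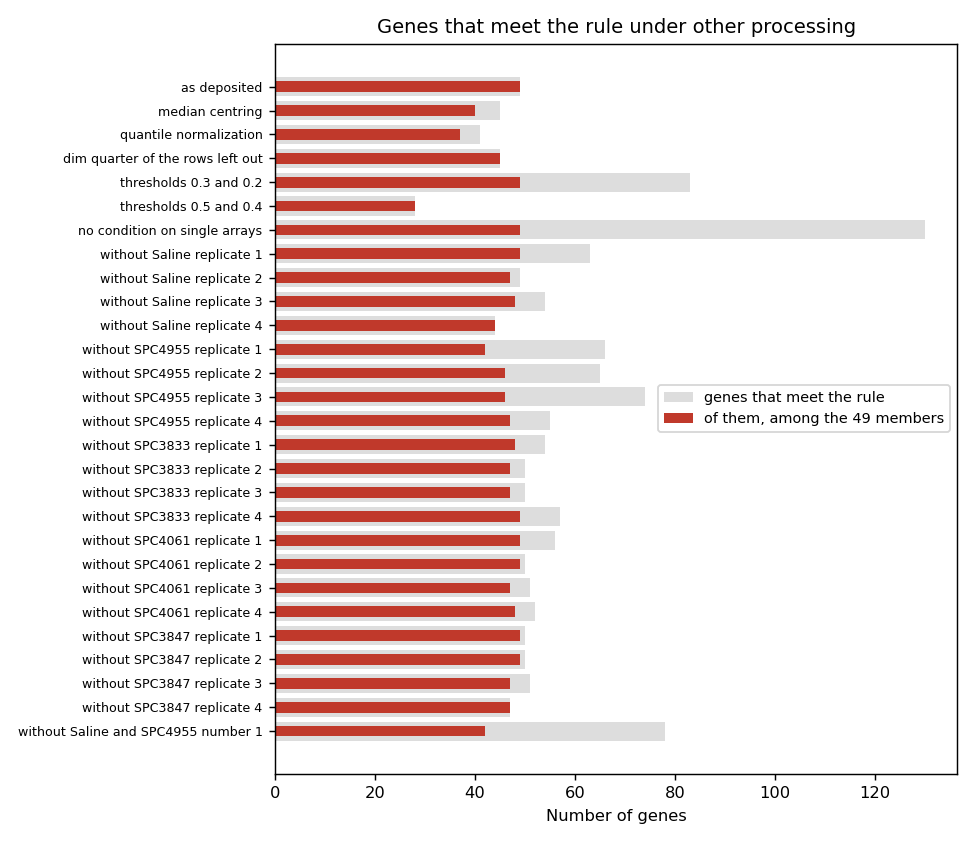
Number of genes that met the rule (grey bars) and number of them among the 49 (red bars) for the values as deposited and for each other setting. The red bars stay at 37 or more except with stricter thresholds, where 28 genes remain, and the grey bars reach 130 when single arrays may overlap.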

How the data were processed

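Liver RNA of 20 mice was measured on 1-colour Affymetrix arrays after biotin labelling of whole transcripts, per the labels' protocols. The authors deposited log2 intensities, a single value for each gene on each array, and the affy package is named per the submitters' processing notes. How background was corrected, how arrays were normalized and how probes were joined to genes is not stated in these sources. The number of arrays limits the precision.

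The genes and lists were chosen with earlier results of these data known. All 22361 genes were fitted over the 20 arrays with limma 3.58.1 (R 4.3.3; functions lmFit, contrasts.fit and eBayes), with 1 mean for each group and 15 residual degrees of freedom, with Benjamini-Hochberg adjustment over all genes of a comparison and a threshold of 0.05. Comparisons with SPC4955 were described only, because they chose the genes. The other 6 comparisons were fitted over all genes, but their arrays also entered the choice, so the calls among the 49 are descriptions. The script was tested on simulated data. Same-numbered replicates of different groups deviated together (correlation over 0.1) in 9 of 40 pairs, and replicates of different number in 32 of 120. The highest correlations were 0.517 and 0.461 and the medians -0.0276 and 0.00879, so no pairing was used.

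Genes were to be named by the 20 largest rises, lists and calls. None of the identifiers was found in the gene table (GRCm38.p6, 0 matches), so the planned reduction to the 2 largest rises was used, with 1 gene added after its values were seen. The 28 gene lists, 14 marker lists, among them hepatocyte markers, and 12 promoter motifs were therefore not analysed here. Alternatives were median centring, quantile normalization, leaving out dim rows, the replicate block, array quality weights, fitting only the arrays compared, a robust prior with a trend, array width as a covariate, other limits of the rule, and leaving out arrays.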

Additional observations from a re-analysis of the deposited data

Results flagged for a closer look

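A value was picked out here when, in a group of 4 arrays, the gap between its highest or lowest array and the nearest other made up a share of the group's range above Dixon's critical value. Of 30 groups of values examined in this way, 5 met this. A rate of about 1 in 20 holds for independent, normal and unselected groups. Many of these groups hold genes that the rule chose on these same arrays, so the count is a description only. ENSMUSG00000031271 read 10.86 (log2 intensity) in SPC4955 replicate 1, far above the other 3 SPC4955 arrays at 10.15 to 10.22. ENSMUSG00000029372 read 5.304 in SPC4061 replicate 3, far below the other 3 at 5.95 to 5.99. Over all genes, saline replicate 1 deviated from its group mean with an SD of 0.270, against 0.148 to 0.163 in the other saline arrays. The quartile range was 3.21 in SPC4955 replicate 4, against 2.99 to 3.03 in its group, and 3.02 in SPC4061 replicate 1, against 3.18 to 3.20 in its group. Of the 245 combinations of a gene among the 49 and a group, 24 had an array that far out. The share over all genes was not computed, so whether the 49 differ from genes at large in this is not known.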

How the results depend on the processing

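The number of genes that met the rule was 45 after median centring (40 of them among the 49), 41 after quantile normalization (37 among the 49), 83 with limits of 0.3 and 0.2, 28 with limits of 0.5 and 0.4, 130 with no condition on single arrays, and 78 without saline and SPC4955 replicate 1. With 1 array left out it lay between 44 and 74, the last without SPC4955 replicate 3, and 42 to 49 of the 49 were kept. Leaving out an array eases the condition on single arrays by design. Higher counts without an array therefore say little about that array.

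The counts of calls among the 49 genes moved with the fit, and the cause was not tested. The share of all genes called the same way in the same fit follows each count. Against saline, the number higher with SPC3833 was 1 after median centring (1.54%), 6 with only the arrays compared (2.99%), 7 with array quality weights (5.89%), 6 with the width covariate (7.01%) and 5 without both arrays numbered 1 (3.04%), and 1 gene was lower with weights (4.55%). With SPC4061, 5 were higher after median centring (8.47%), 5 after quantile normalization (6.01%), 7 with only the arrays compared (7.86%) and 7 with weights (14.7%), and 2, 3 and 2 were lower with quantile normalization (3.67%), weights (8.08%) and the width covariate (3.39%). With SPC3847, 0 were higher with only the arrays compared (0.0224%) and 2 with the width covariate (4.55%). Between SPC3833 and SPC4061, 2 were higher after median centring (3.1%) and 8 with weights (24.2%), and 4, 5 and 0 were lower with only the arrays compared (14%), weights (17.2%) and the width covariate (4.31%). Between SPC3833 and SPC3847, 2, 3 and 12 were higher after median centring (1.26%), with only the arrays compared (1.55%) and with the width covariate (5.72%), and 2 were lower with weights (6.73%). Between SPC4061 and SPC3847, 1 was higher (3.56%) and 1 lower (2.89%) after quantile normalization, and 1 was higher with only the arrays compared (2.24%). With 1 array left out the numbers higher and lower ranged from 2 to 5 and 0 to 1 (SPC3833 against saline; 2.23% to 4.63% and 2.4% to 3.89% of all genes), 2 to 5 and 0 to 2 (SPC4061 against saline; 5.51% to 10.6% and 1.8% to 3.52%), 0 to 1 and 0 to 0 (SPC3847 against saline; 0.823% to 2.54% and 0.979% to 1.77%), 3 to 6 and 1 to 3 (SPC3833 against SPC4061; 3.47% to 10.7% and 6.48% to 11.5%), 3 to 8 and 0 to 1 (SPC3833 against SPC3847; 2.01% to 3.18% and 2.36% to 4.59%), and 1 to 3 and 0 to 0 (SPC4061 against SPC3847; 2.93% to 6.36% and 1.22% to 2.92%).

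The replicate block moved no count by over 1.5 times. With it, 3, 4 and 1 genes were higher than saline with SPC3833, SPC4061 and SPC3847, where 3.08%, 7.5% and 1.31% of all genes were. Between oligonucleotides it lost both calls of the gene of rank 23 and 1 call each of those of rank 30 and 31. Over the alternatives, 4 to 14 of the 49 genes passed against saline with another oligonucleotide, and 12.5% to 29.6% of all genes; in 25 of the 29 the share among the 49 was the lower one. The difference of ENSMUSG00000029372 between SPC4061 and saline was -0.0214 with the width covariate, and from -0.0119 (without saline replicate 4) to 0.261 with 1 array left out, against 0.0959 in the fit reported. That of ENSMUSG00000072949 between SPC3847 and saline was 0.0709 with weights, and from -0.112 to 0.143 with 1 array left out (above 0 without saline replicate 3 or SPC3847 replicate 4), against -0.025. None of these passed the threshold. ENSMUSG00000029372 passed against saline with SPC3833 when only the arrays compared were fitted (adjusted p = 0.0372). Signal over background was not analysed here.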
